A study of Homo sapiens with 4 samples.

Results

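The genes described here are 8 lineage markers of the Müllerian tract (oviduct, uterus and upper vagina) and of the mesothelium (the lining of the body cavities): MSLN, MUC16, WT1, PAX8, FOLR1, WFDC2, EMX2 and MUC1. The cells were MDA-MB453, an established human breast cancer line, and all were grown in the same serum-containing medium. Cells positive for green fluorescent protein (GFP) carry the label cancer stem-like, GFP-negative cells the label non-cancer stem-like, and 2 arrays were run for each. Which element drives GFP is unknown from the sources used here. The RNA came from pairs of GFP-positive and GFP-negative cells collected on different days, and the series text says that RNA batches were combined for the arrays, without saying how. All probes whose annotated symbol is one of the 8 genes were taken, which gave 16 of the 47321 probes on the array. The genes were selected on measured signals of these same 4 arrays, so their differences are a description and carry no test.

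Mesothelin, encoded by MSLN, is a cell surface protein held by a lipid anchor, made by mesothelial cells and by many ovarian, pancreatic and mesothelial tumours, and it binds the large transmembrane mucin MUC16, which carries the CA125 antigen. WT1 and PAX8 are transcription factors used by pathologists to assign tumours: WT1 marks mesothelium and serous ovarian tumours, and PAX8 marks Müllerian, renal and thyroid epithelium. In breast epithelium MUC1 is the usual surface mucin among these genes.

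Signals are bead brightness values on a linear scale as deposited, and a detection p under 0.05 (the probe's rank among the negative controls) marks a probe as detected. Normalized levels are log2 signals after background correction and quantile normalization. The number of detected probes lay between 17400 and 18197 per array, and precision is limited by having 2 arrays a group. Across the 18098 tested probes, those detected on both arrays of at least 1 group, Pearson's r across probes was 0.991 and 0.987 within the groups and between 0.843 and 0.856 across them. The probes cannot tell fewer cells that make a transcript from less transcript per cell. Of the 16 probes, 8 met that filter, and they stand for 6 genes, since no EMX2 or WFDC2 probe did. The filter favours probes that are brighter in 1 group, so the 8 are not a sample of all 16.

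MSLN was bright in GFP-positive cells and at background in GFP-negative cells. Its single probe, ILMN_2353161, read 2259 and 2017 in GFP-positive replicates 1 and 2, against 171 and 183 in GFP-negative replicates 1 and 2. The groups lay far apart, and detection p was 0 on both GFP-positive arrays and 0.391 and 0.223 in GFP-negative cells. Normalized levels were 11.05 ± 0.16 and 5.63 ± 0.14 (log2, SD, n = 2). On this background-corrected scale MSLN was at least 30.4-fold higher in GFP-positive cells. That bound was taken against the lowest level of any detected probe on each GFP-negative array. The ratio of the mean deposited signals, with no background correction, was 12.1.

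MUC16, the binding partner of mesothelin, went in the other direction. Its probe ILMN_2125346 read 161 and 176 on GFP-positive replicates 1 and 2, and 380 and 351 on GFP-negative replicates 1 and 2. It was detected on both GFP-negative arrays and on neither GFP-positive array, with no overlap between the groups. The normalized level was 5.50 ± 0.03 in GFP-positive and 7.77 ± 0.29 in GFP-negative cells (SD, n = 2), so that GFP-positive cells had at least 3.09-fold less. The ratio of mean deposited signals, GFP-negative over GFP-positive, was 2.17.

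MUC1, the mucin of glandular epithelium, had close values in both groups. Its brightest probe, ILMN_1756992, read 469 and 493 in GFP-positive cells and 464 and 480 in GFP-negative cells, in replicate order. All arrays detected it, and their signals interleaved. The normalized difference, GFP-positive minus GFP-negative, was 0.11 ± 0.17 (log2, SE). A second probe, ILMN_2371911, lay at the edge of detection. Its detection p was 0.0494 and 0.0481 on the GFP-positive arrays, just inside the threshold, and 0.0312 and 0.0662 on GFP-negative replicates 1 and 2, the last just outside. The third MUC1 probe, ILMN_1677314, was detected on no array (signals from 146 to 155). The 3 MUC1 probes are annotated to different transcripts of the gene.

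**Figure D1:**
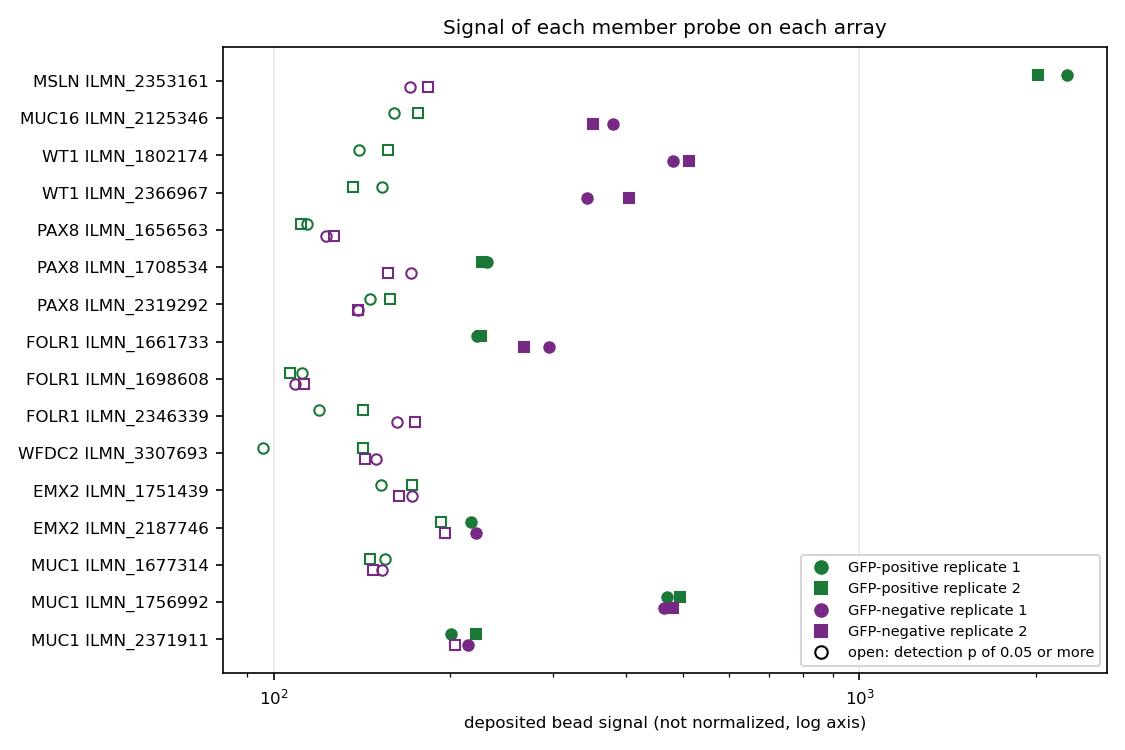
Deposited bead signal (log axis) of each of the 16 probes on each of the 4 arrays, green for GFP-positive and purple for GFP-negative cells, circles for replicate 1 and squares for replicate 2. Filled symbols are detected (p under 0.05) and open symbols are not: MSLN is filled in green only, MUC16 and both WT1 probes in purple only, and WFDC2 is open on every array.

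WT1, a zinc finger transcription factor of kidney, gonad and mesothelium, was detected in GFP-negative cells only, by both of its probes. Probe ILMN_1802174 read 140 and 157 on GFP-positive replicates 1 and 2, and 480 and 512 on GFP-negative replicates 1 and 2. Probe ILMN_2366967, annotated to another WT1 transcript, read 153 and 137 in GFP-positive cells and 343 and 405 in GFP-negative cells. The groups did not overlap on either probe, and detection p on the GFP-positive arrays was between 0.51 and 0.747. Normalized levels were 5.25 ± 0.05 against 8.43 ± 0.07 on the first probe and 5.23 ± 0.20 against 7.81 ± 0.10 on the second (GFP-positive against GFP-negative, SD, n = 2). GFP-positive cells had at least 4.88-fold and at least 3.18-fold less WT1 signal on these probes. The ratios of mean deposited signals, GFP-negative over GFP-positive, were 3.34 and 2.58. WT1-AS, the noncoding transcript from the opposite strand of the WT1 locus, was looked up after the WT1 values were seen. Its probe read 164 and 181 in GFP-positive cells, where it was not detected, and 305 and 314 in GFP-negative cells, where it was (at least 2.34-fold apart).

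PAX8, a paired box transcription factor of the Müllerian ducts, kidney and thyroid, was faint. Probe ILMN_1708534 read 231 and 227 on GFP-positive replicates 1 and 2, and 172 and 157 on GFP-negative replicates 1 and 2. It was detected on both GFP-positive arrays (p of 0.0039 and 0.0325) and on neither GFP-negative array. Its level was 6.43 ± 0.24 against 5.45 ± 0.12 (GFP-positive against GFP-negative, SD, n = 2), at least 1.24-fold higher in GFP-positive cells. The other PAX8 probes, ILMN_1656563 and ILMN_2319292, were detected on no array, with signals from 111 to 127 and from 139 to 158. ILMN_1656563 is annotated to the same transcript as ILMN_1708534, so the PAX8 probes disagree on whether that transcript is present. The antisense PAX8-AS1, also looked up after the values were seen, was detected on GFP-positive replicate 2 alone.

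EMX2, a homeobox transcription factor needed for the urogenital tract in mice, showed no separation of the groups. Probe ILMN_2187746 read 218 and 193 in GFP-positive cells and 221 and 196 in GFP-negative cells, in replicate order, and was detected on replicate 1 of each group only. Probe ILMN_1751439 was detected on no array (signals from 153 to 172). EMX2OS, transcribed from the opposite strand and looked up after the values were seen, was detected on all 4 arrays by 1 of its probes, with a log2 difference of -0.13 ± 0.22 (SE).

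FOLR1, the lipid-anchored folate receptor alpha, was faint in both groups and somewhat brighter in GFP-negative cells on 1 of its 3 probes. ILMN_1661733 read 222 and 226 on GFP-positive replicates 1 and 2, and 296 and 267 on GFP-negative replicates 1 and 2, and every array detected it. The GFP-negative arrays were both above the GFP-positive arrays, with a log2 difference of -0.74 ± 0.22 (SE). That value was -0.33 without background correction, and it was -0.49 without GFP-negative replicate 1. The other FOLR1 probes, ILMN_1698608 and ILMN_2346339, were detected on no array, with signals from 107 to 113 and from 119 to 174. WFDC2, a secreted protein with WAP domains that serves as a serum marker of ovarian cancer, was detected on no array, with 96.0 and 142 on the GFP-positive and 150 and 143 on the GFP-negative arrays.

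By the brightest tested probe, MSLN and PAX8 passed an adjusted p of 0.05 upwards in GFP-positive cells, MUC16, WT1 and FOLR1 passed downwards, and MUC1 did not pass. The same threshold was passed by 42.6% of the 10955 tested genes, 20.3% upwards and 22.4% downwards (limma, Benjamini-Hochberg). This contrast chose the members, so their passes are no test, and nothing is read from them or from their count. Counted by probe, 2 of the 8 tested passed upwards and 4 downwards, where 40.5% of all tested probes passed, 18.8% upwards and 21.7% downwards. On the normalized scale the groups did not overlap on 7 of the 8, among them the brightest MUC1 probe, and on 72.6% of all tested probes. The call of FOLR1 ended without background correction (adjusted p = 0.0782, limma), and when GFP-positive replicate 1 or 2 or GFP-negative replicate 1 was left out (0.0706, 0.163 and 0.115), and that of PAX8 ended without GFP-positive replicate 1 (0.0539).

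**Figure D2:**
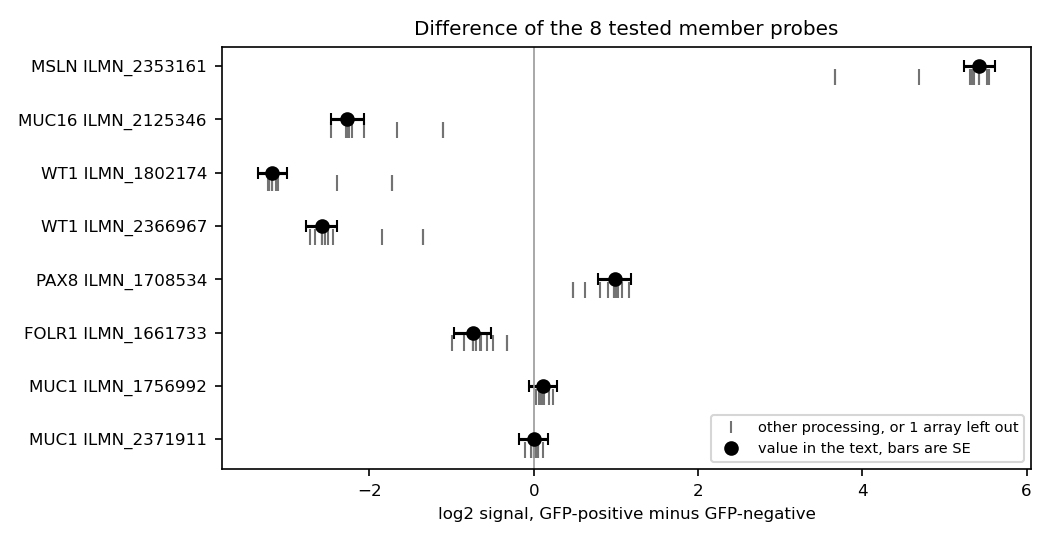
Difference in log2 signal, GFP-positive minus GFP-negative, for the 8 tested member probes. Points are the values in the text with bars of 1 SE, and grey ticks are values under other processing or with 1 array left out; MSLN stays between 3.67 and 5.54, both WT1 probes and MUC16 stay at or below -1.11, and MUC1 stays near 0.

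The promoters of these genes differ in base composition. Windows of 300 bases, 250 before and 50 after an annotated start, were taken from RefSeq (GRCh38.p14), which gave 11 windows for 6 of the genes, EMX2, MUC1, MUC16, PAX8, WFDC2 and WT1. The windows at the outermost start of WT1 and MUC16 are shown because these genes were brighter in GFP-negative cells, that of PAX8 because it was brighter in GFP-positive cells, and that of MUC1 because its values were close in both. They run 5′ to 3′ on the gene's strand in lower case, with each CpG dinucleotide in capitals.
WT1, chr11:32435490-32435789, minus strand: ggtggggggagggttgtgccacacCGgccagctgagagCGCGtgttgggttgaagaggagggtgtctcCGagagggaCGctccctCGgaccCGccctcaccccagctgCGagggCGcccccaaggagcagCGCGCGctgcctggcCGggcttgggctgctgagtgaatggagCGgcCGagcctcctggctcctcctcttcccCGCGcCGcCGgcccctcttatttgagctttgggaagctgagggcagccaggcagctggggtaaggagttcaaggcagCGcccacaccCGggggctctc
MUC16, chr19:9065702-9066001, minus strand: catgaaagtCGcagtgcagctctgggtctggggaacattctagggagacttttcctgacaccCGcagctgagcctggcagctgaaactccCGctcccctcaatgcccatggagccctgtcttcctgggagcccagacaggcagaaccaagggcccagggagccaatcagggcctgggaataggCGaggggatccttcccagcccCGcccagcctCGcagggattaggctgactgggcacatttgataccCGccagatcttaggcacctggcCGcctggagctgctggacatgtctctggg
PAX8, chr2:113278872-113279171, minus strand: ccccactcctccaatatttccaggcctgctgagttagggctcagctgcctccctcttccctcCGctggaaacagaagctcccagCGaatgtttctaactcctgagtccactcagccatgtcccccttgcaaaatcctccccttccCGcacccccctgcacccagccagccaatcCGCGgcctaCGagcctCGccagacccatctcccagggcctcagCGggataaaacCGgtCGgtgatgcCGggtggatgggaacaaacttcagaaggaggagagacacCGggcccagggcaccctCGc
MUC1, chr1:155192866-155193165, minus strand: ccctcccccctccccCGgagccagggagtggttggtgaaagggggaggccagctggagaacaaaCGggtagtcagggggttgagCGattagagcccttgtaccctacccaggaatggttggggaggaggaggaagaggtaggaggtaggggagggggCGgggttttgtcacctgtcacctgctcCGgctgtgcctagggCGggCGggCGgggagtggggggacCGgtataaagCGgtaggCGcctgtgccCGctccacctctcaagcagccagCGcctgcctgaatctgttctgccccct

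The WT1 window holds 21 CpG dinucleotides and the MUC16 window 8, so these genes, both brighter in GFP-negative cells, differ in CpG number. The observed over expected CpG ratio was 0.57 for WT1, 0.28 for MUC16, 0.48 for PAX8 and 0.42 for MUC1, against a median of 0.58 over all 35116 windows. EMX2 and WFDC2, which were at or near background, had 0.85 and 0.67. The letters TATAAA, searched on both strands as the other motifs were, occur once in each of the 2 overlapping MUC1 windows and in no other window of these genes (11.5% of all windows hold them). GGGCGG, the GC box, was found in 6 of the 11 windows (45% of all), 4 times in MUC1, and GGAATG, the core of TEAD sites, in 3 (14% of all), the MUC1 windows and the most downstream WT1 window. The WT1 site GCGTGGGAG (0.689% of all) and the site GCGGGGGCG, shared by WT1 and EGR1 (5.07% of all), were in none of these windows. These are matches of letters, and the start used in these cells is not known.

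For each member, the gene whose normalized values ran most nearly parallel over the 4 arrays was found as the smallest Euclidean distance between values centred on their mean. For MSLN this was EBP, a sterol isomerase of cholesterol synthesis, at a distance of 0.106 (log2), with 10.86 and 10.70 in GFP-positive and 5.19 and 5.52 in GFP-negative cells. For WT1 it was POLR1F, a subunit of RNA polymerase I, at 0.116, and for MUC16 it was CCDC74B at 0.0512. PAX8 lay nearest to SEC62, of the protein export machinery, at 0.0506, FOLR1 to the progestin receptor family gene PAQR7 at 0.0544, and MUC1 to AP2S1, a clathrin adaptor subunit, at 0.0173. With 4 arrays in 2 groups, these distances reflect mostly the size of the group difference.

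The nearest named protein-coding genes along the chromosomes are given with their own tests. Beside MSLN, CIAO3, of cytosolic iron-sulfur assembly, was lower in GFP-positive cells (log2 difference -0.60 ± 0.17, SE, adjusted p = 0.0294, limma), and RPUSD1 had 0.25 ± 0.23 (0.415). Beside WT1, RCN1, a calcium-binding protein of the endoplasmic reticulum, and the translation factor subunit EIF3M did not pass (0.37 ± 0.17 and -0.00 ± 0.18, adjusted p = 0.124 and 0.995). Beside PAX8, PSD4, a nucleotide exchange factor of ARF proteins, was at least 1.65-fold higher in GFP-positive cells (adjusted p = 0.000645), the direction of PAX8. Both neighbours of MUC1 were lower in GFP-positive cells, TRIM46 at least 1.83-fold (adjusted p = 0.00716) and the thrombospondin THBS3 with a log2 difference of -1.13 ± 0.21 (0.00474). EMX2 has RAB11FIP2, an effector of RAB11, on one side (0.78 ± 0.19, adjusted p = 0.0152) and PDZD8 on the other (0.12 ± 0.17, 0.604), and WFDC2 has PIGT, of lipid anchor transfer, at -0.51 ± 0.17 (0.0522). The neighbours of FOLR1, its paralogs FOLR2 and FOLR3, were detected on no array, and MBD3L1 and OR1M1 beside MUC16, ZNG1B beside PAX8 and SPINT3 beside WFDC2 did not meet the detection filter.

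The 11 related gene lists described from here on were chosen with earlier results of these data known. Their shares beside all tested genes are descriptions and carry no test. Genes known from mesothelium were found on both sides, as the members were. Of 30 listed mesothelial markers, 29 had a named probe and 11 were tested, and 4 were higher and 6 lower in GFP-positive cells, where 42.6% of all tested genes passed. With MSLN, the calcium-binding calretinin gene CALB2 was higher (at least 9.4-fold, 9.35 ± 0.23 against 5.81 ± 0.02, adjusted p = 7.88e-06, limma), as were PROCR, the protein C receptor (at least 14.5-fold), the integrin ITGB4 (log2 difference 3.81 ± 0.21, SE) and the keratin KRT19 (3.20 ± 0.22). With WT1 and MUC16, the surface protein gene TM4SF1 was lower (at least 61.9-fold, 5.79 ± 0.17 against 12.09 ± 0.02, adjusted p = 6.65e-07), as were the keratins KRT7 (at least 32.6-fold) and KRT5 (at least 1.83-fold) and the intermediate filament gene VIM (-2.27 ± 0.19). HEG1 and CAV1 were lower too (-0.89 ± 0.18 and -0.85 ± 0.21). HEG1 lost its call without GFP-positive replicate 2 (adjusted p = 0.0583) and CAV1 without GFP-positive replicate 1 (0.114) or GFP-negative replicate 2 (0.0667), and the other CAV1 probe did not pass (-0.14 ± 0.21). The list's median difference was -0.85, against -0.05 over all tested genes. Another 18 markers did not meet the detection filter, and 12 of them, among them PDPN, THBD, ITLN1, UPK1B, LRRN4 and DES, were detected on no array. The summed normalized signal of the list's 54 probes was 31625 to 36582 on the GFP-positive and 37804 to 42325 on the GFP-negative arrays. This sum follows the brightest probes and does not describe the list as a whole. Among them, CAV1 (13.45 against 14.30) and KRT19 (13.62 against 10.42, GFP-positive against GFP-negative) went in opposite directions.

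The regulators and targets of Müllerian duct development were mostly at background. Of 30 listed genes, 23 had a named probe, 7 were tested and 16 were detected on no array, including the duct regulators PAX2, LHX1, WNT4, WNT7A and DACH1, the receptor gene AMHR2 and the steroid receptors ESR1 and PGR. Of the 7 tested, 2 were higher and 3 lower in GFP-positive cells, 71.4% beside 42.6% of all tested genes. SOX17, a transcription factor that works with PAX8 in ovarian cancer cells, was at least 90.9-fold lower (4.94 ± 0.04 against 12.65 ± 0.03, adjusted p = 3.26e-07, limma), while PAX8 itself was brighter in GFP-positive cells. EMX1, the paralog of EMX2, was lower by at least 5.71-fold (adjusted p = 3.15e-05), and TBX3 had -0.86 ± 0.28 (0.0444), a call that ended without GFP-positive replicate 2 (0.258) or GFP-negative replicate 2 (0.185). The homeobox gene MSX1 was higher (3.16 ± 0.18, adjusted p = 1.09e-05), as was OVGP1, the oviduct glycoprotein (0.80 ± 0.18, 0.0103, and 0.0917 without GFP-positive replicate 2). MSX2 and RET did not pass (0.40 ± 0.20 and 0.09 ± 0.21). The median of the tested members was 0.09.

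**Figure D3:**
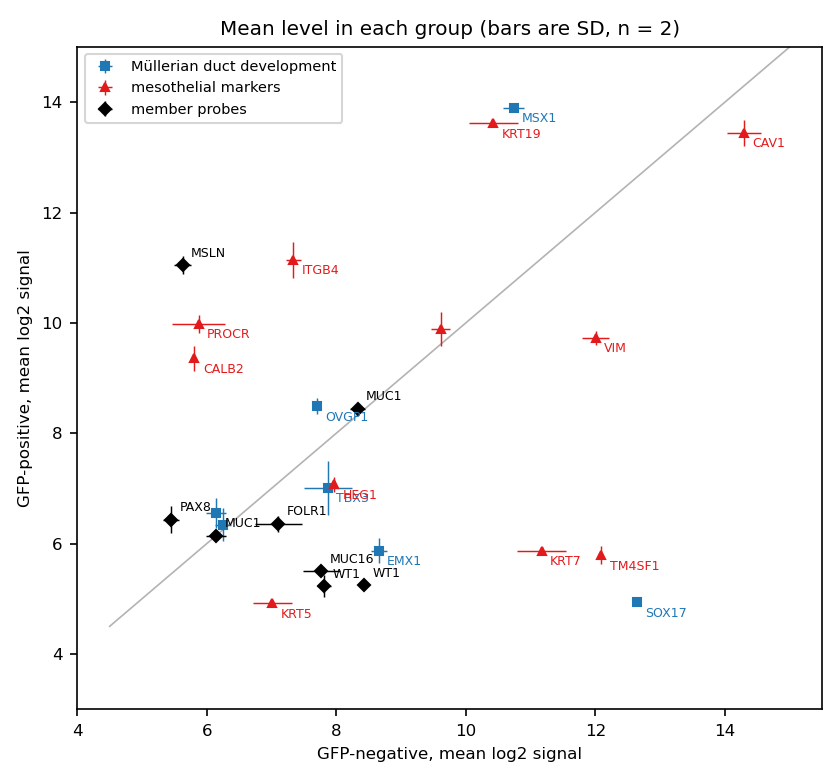
Mean normalized log2 signal in GFP-negative (horizontal) and GFP-positive (vertical) cells for the tested member probes and for tested genes of the Müllerian and mesothelial lists, with bars of 1 SD (n = 2) and a line of equal level; list genes past the threshold are named. MSLN lies above the line with CALB2, PROCR and ITGB4, and WT1 and MUC16 lie below it with KRT5, KRT7, TM4SF1 and SOX17.

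Genes of ovarian carcinoma and female tract epithelium were also found on both sides. Of 32 listed, 31 had a named probe and 16 were tested, with 9 higher, 5 lower and 2 not past the threshold (87.5% called, beside 42.6% of all tested genes), and a median difference of 0.79. The retinoic acid carrier CRABP2 (log2 difference 4.92 ± 0.26, SE, adjusted p = 7.4e-06, limma), the epithelial transcription factor EHF (at least 13-fold), the kallikrein KLK6 (4.63 ± 0.29) and the surface antigen CD24 (at least 7.8-fold) were higher in GFP-positive cells. KLK11 (at least 188-fold, adjusted p = 4.36e-07), KLK10 (-2.81 ± 0.29) and the transcription factor MECOM (-2.80 ± 0.21) were lower, as were CDKN2A and CLDN3. The number of lower genes was 3 with GFP-positive replicate 1 or 2 or GFP-negative replicate 1 left out, when CLDN3 and CDKN2A missed the threshold (adjusted p from 0.0676 to 0.0981). Another 15 did not meet the detection filter, and SLC34A2, VTCN1, CLDN6, PAEP, BCAM and SLPI were among the 13 detected on no array. KLK6, KLK7, KLK10 and KLK11 are related kallikreins of a single gene cluster.

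Among genes tied to the surface proteins by function, the enzymes that build mucin glycans and the proteins that bind them also lay on both sides. Of 26 genes for mucin and mesothelin processing and ligands, 20 were tested, with 7 higher, 3 lower and 10 not past the threshold, a share of 50% beside 42.6% of all tested genes. GALNT12, which starts O-glycan chains, was at least 10-fold higher (adjusted p = 2.03e-06, limma), LGALS3, a galectin that binds MUC1 and MUC16, at least 2.76-fold, the sialyltransferase ST3GAL1 at least 3.97-fold and the core-branching GCNT1 at least 3.88-fold. ST6GALNAC2 was lower (-1.38 ± 0.18, SE, adjusted p = 0.000743), as were GALNT2 and GALNT3 (0.0143 and 0.0467), and without GFP-positive replicate 2 the number lower was 1. LGALS8, another galectin, did not pass on its brightest probe (0.61 ± 0.21, adjusted p = 0.0514), while another of its probes passed downwards (-0.90 ± 0.20, 0.00934). FURIN, the protease that cleaves the mesothelin precursor, did not pass, with 0.09 ± 0.23 (adjusted p = 0.772). Of 19 other mucins and mucin-like genes, 3 were tested and 66.7% of these passed, beside 42.6% of all tested genes. The sialomucin PODXL was higher (1.52 ± 0.17, adjusted p = 0.000372), CD164 did not pass (-0.01 ± 0.32), and the MUC4 probes disagreed, with -0.79 ± 0.20 on the brightest and 1.55 ± 0.22 on the other (adjusted p = 0.0187 and 0.00126). The MUC4 call on the brightest probe ended without GFP-positive replicate 2 or GFP-negative replicate 1 (0.135 and 0.0764). OTOA and STRC, relatives of mesothelin looked up after the values were seen, were not detected apart from a STRC probe on GFP-negative replicate 2.

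Around FOLR1, genes of folate uptake and use were tested for 14 of 23 listed. By the brightest probe, 1 was higher and 3 lower, 28.6% beside 42.6% of all tested genes, a count that depends on the probe chosen. GART, of purine synthesis, did not pass on its brightest probe (0.30 ± 0.18, SE, adjusted p = 0.234, limma) and passed upwards on its 2 others (1.09 ± 0.28 and 0.95 ± 0.20, adjusted p = 0.0192 and 0.00797). GGH, which trims folate side chains, did not pass on its brightest probe (-0.24 ± 0.18, adjusted p = 0.325) and passed downwards on the other (-0.68 ± 0.18, 0.0211). The enzyme MTHFD2 was higher (0.91 ± 0.24, SE, adjusted p = 0.0213, limma), and the enzymes MTHFD1 (-0.69 ± 0.18, 0.0184), MTR (-0.69 ± 0.23, 0.0452) and ATIC (-0.51 ± 0.17, 0.0496) were lower. None of these kept its call under every alternative: MTHFD2 missed it without GFP-positive replicate 2 (0.15) or GFP-negative replicate 1 (0.0954), and the number lower was 1 without GFP-positive replicate 1 or GFP-negative replicate 2 and 0 without GFP-positive replicate 2 or GFP-negative replicate 1. The folate carriers SLC19A1 and SLC46A1 were detected in both groups and did not pass (0.47 ± 0.27 and -0.09 ± 0.21, adjusted p = 0.195 and 0.763), but SLC19A1 passed without GFP-negative replicate 1 (0.86, adjusted p = 0.0237). Of the WAP domain family to which WFDC2 belongs, 14 of 15 genes had a named probe, none met the detection filter and 11 were detected on no array.

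Known cofactors and targets of WT1 moved in both directions. Of 25 listed, 17 were tested, with 9 higher, 4 lower and 4 not past the threshold in GFP-positive cells, which had WT1 at background. That is 76.5% called, beside 42.6% of all tested genes, and the median difference was 0.59. SOX9, which acts with WT1 in the developing gonad, was at least 49.8-fold higher (adjusted p = 8.32e-07, limma), the coactivator CITED2 at least 7.31-fold, the cadherin CDH1 had 3.03 ± 0.25 (SE) and the phosphatase DUSP6 had 1.83 ± 0.18. The filament gene NES (-4.33 ± 0.19, adjusted p = 3.38e-06), the signalling inhibitor SPRY1 (-2.82 ± 0.20), WTIP, which binds WT1 (-1.35 ± 0.28), and BCL2 (-1.09 ± 0.18) were lower. These 4 had the direction of WT1 and the 9 higher genes had the opposite one. Dependence of any of them on WT1 was not tested. The number higher was 6 without GFP-positive replicate 1 or GFP-positive replicate 2. The corepressor BASP1 did not meet the detection filter. Of 20 PAX family genes and PAX8 targets, 4 were tested and 50% of these passed, beside 42.6% of all tested genes. PAX6 and PAX7, paired box factors of the nervous system, eye and muscle, were at least 8.3-fold and 2.76-fold lower in GFP-positive cells (adjusted p = 8.64e-06 and 0.000409), while PAXIP1 and RB1 did not pass (-0.14 ± 0.19 and 0.56 ± 0.36, adjusted p = 0.59 and 0.25). RB1 passed without GFP-negative replicate 2 (1.17, adjusted p = 0.00727). The thyroid targets TG, SLC5A5 and TSHR were detected on no array.

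**Figure D4:**
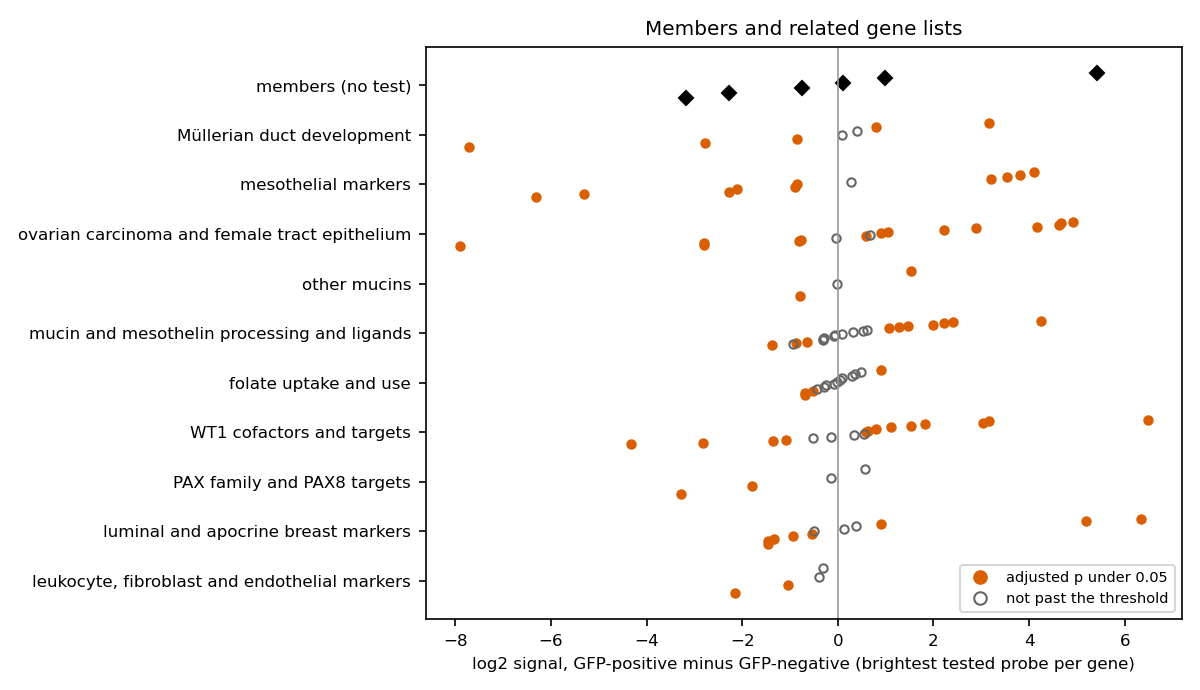
Difference in log2 signal, GFP-positive minus GFP-negative, of the brightest tested probe of each gene, by list; black diamonds are the members, filled orange circles passed an adjusted p of 0.05 and open circles did not. The members and the mesothelial, ovarian, Müllerian and WT1 lists hold genes beyond 3 in both directions, and the folate genes lie between -0.69 and 0.91.

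Markers of the labelled cell type were present only in part. Of 28 luminal and apocrine breast markers, 26 had a named probe, 11 were tested, and GATA3, PIP, AGR2, TFF1, TFF3, AZGP1 and SCGB2A2 were among the 13 detected on no array. Of the 11, 3 were higher and 5 lower in GFP-positive cells (72.7% called, beside 42.6% of all tested genes), with a median of -0.49, or -0.09 with genes near background at their bounds. MLPH, of pigment granule transport, was at least 45.6-fold higher (adjusted p = 6.69e-07, limma), with the keratin KRT8 at 5.18 ± 0.33 (SE) and the lipid enzyme FASN at 0.90 ± 0.20, a call that ended without either GFP-positive array (adjusted p = 0.0513 and 0.0555). ALCAM, ERBB2, CLDN8 and FOXA1 were lower (-1.47 ± 0.18, -1.46 ± 0.17, at least 1.75-fold and -0.94 ± 0.22), as was SLC44A4, and the number lower was 3 without GFP-positive replicate 2 or GFP-negative replicate 2. The list's summed normalized signal was 65736 to 69463 on the GFP-positive and 46918 to 50391 on the GFP-negative arrays. This sum follows the brightest probes, among them FASN (14.86 against 13.96) and KRT8 (13.68 against 8.50, GFP-positive against GFP-negative). It does not describe the list as a whole, where 5 genes were lower and 3 higher. Of 14 leukocyte, fibroblast and endothelial markers, 13 had a named probe and 4 were tested, CD14, CD68, COL1A1 and COL1A2. The share that passed was 50%, beside 42.6% of all tested genes. PTPRC, CD3E, DCN, LUM, PDGFRB, PECAM1, CDH5, VWF and KDR were detected on no array. The collagens COL1A2 and COL1A1 were lower in GFP-positive cells (at least 3.95-fold and 1.89-fold, adjusted p = 0.000154 and 0.0309), beside WT1 and MUC16. COL1A1 lost its call without GFP-positive replicate 2 (0.175) or GFP-negative replicate 1 (0.152), and without GFP-negative replicate 2 CD14 and CD68 passed as well (0.0328 and 0.0467). The brightest CD68 probe had -0.40 ± 0.21 (adjusted p = 0.161) and its other tested probe 2.32 ± 0.22 (0.000167). The summed signal of these lineages was 2016 to 2041 on the GFP-positive and 2192 to 2384 on the GFP-negative arrays, and their part in the members' differences was not tested.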

How the data were processed

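Biotinylated cRNA, made from total RNA per the labels' protocols, was read on Illumina bead arrays. The authors deposited 1 linear intensity per probe and array, which the file headers call non-normalized, and beside it a detection p-value in steps of 1 in 770. The submitters' processing notes name GenomeStudio 2009.2; its background setting is not known here. A second deposited table holds log2 values, which match quantile-normalized log2 signals to within 5e-09.

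Signals were corrected and normalized with neqc in limma 3.58.1 (R 4.3.3), taking the background from the detection p-values (offset 16), and group differences came from lmFit and eBayes with 2 residual degrees of freedom. A probe was tested if both arrays of either group had it at a detection p under 0.05. Benjamini-Hochberg adjustment of the 2-sided p-values ran over the 18098 such probes, and 0.05 was the threshold. Of these, 7322 passed (40.5%), 3394 higher and 3928 lower in GFP-positive cells. The fit was also run on simulated log2 values in which few probes differed. That run did not repeat the normalization, and it does not show how the calls hold where 40.5% of probes pass. With 2 arrays against 2, the smallest 2-sided p of an exact permutation test is 0.333, and the calls depend on the variance limma pools across probes. Separate cultures are not stated for arrays of a group; the p-values then reflect the spread between these samples alone, which may be technical.

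Where a group detected a probe on fewer than 2 arrays, its level there was raised, where needed, to the lowest level any detected probe had on that array, and the fold reads "at least". Such a bound holds for this background correction and offset only. Probes were named from the platform annotation, with symbols updated through the GRCh38.p14 gene table; 30111 probes had 1 symbol, 8 several and 17202 none here. A gene in a list is represented by its brightest tested probe, and some genes are in more than 1 list. The members and the 11 lists were chosen with earlier results of these data known. Named are all members, every neighbour, and from each list up to 4 genes past the threshold in each direction with the largest difference, with others where a count needed them. Since the series text mentions pairs from different days, arrays with the same number were treated as sharing a day, and their deviations from the group mean had a correlation of 0.219 across probes. The alternatives were other background, offset, scaling, detection filter and probe rules, the deposited log2 table, a replicate block, and each array left out.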

Additional observations from a re-analysis of the deposited data

How the results depend on the processing

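Among the 8 tested member probes, MSLN ranged from 3.67 to 5.54 (log2 difference over the settings that tested it), MUC16 from -2.47 to -1.11, the WT1 probes from -3.23 to -1.72 and from -2.72 to -1.35, PAX8 from 0.48 to 1.16, and MUC1 from 0.03 to 0.23 and from -0.11 to 0.11. Of these probes only those of FOLR1 and the brightest of MUC1 were tested where detection on all arrays was required. FOLR1 was -0.33 at its nearest to 0. The values nearest 0 for MSLN, MUC16, WT1, PAX8 and FOLR1 came without background correction and from the deposited log2 table, whose dim values are compressed by construction. These settings hold the same values to within 5e-09, so they are not separate checks, although both are counted among the alternatives. None of the 74 called list genes and members changed sign under the 11 alternatives run on single genes, and 24 lost the call under at least 1 of them.

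With the replicate pairing as a block, 3878 probes were higher and 4593 lower, and no list count moved by over 1.5 times. The number of probes higher was 2155 when only probes detected on all arrays were tested, a smaller set by construction. That setting also gave 1 lower gene for Müllerian development, 2 higher and 3 lower for mesothelial markers, 2 higher for mucin processing, and 0 lower for PAX genes and for leukocyte, fibroblast and endothelial markers. With no detection filter, 3 ovarian genes, 0 other mucins, 1 folate gene, 1 WAP gene (WFDC13) and 1 leukocyte, fibroblast or endothelial marker were lower, and 0 folate genes were higher. Without background correction, and so in the deposited values too, the other mucins held 0 lower genes, and with cyclic loess 1 folate gene was lower. With the mean of a gene's probes, 0 other mucins were lower, and 2 folate genes and 1 leukocyte, fibroblast or endothelial marker were higher. The cause was not tested for these changes.

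With each array left out in turn, the probes higher ranged from 2218 to 3363 and those lower from 2314 to 3574, both lowest without GFP-positive replicate 2. Over the same 4 fits, Müllerian genes ranged from 1 to 2 higher, ovarian genes from 3 to 5 lower, other mucins from 0 to 1 lower, mucin processing genes from 1 to 3 lower, folate genes from 0 to 1 higher and from 0 to 1 lower, PAX genes from 0 to 1 higher, luminal genes from 3 to 4 lower, and leukocyte, fibroblast and endothelial markers from 1 to 4 lower. Signal over background limits PAX8, FOLR1, EMX2 and WFDC2, which were undetected or faint on every array.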
